A study of Homo sapiens with 24 samples.

Results

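The genes described here are 8 kallikrein genes of the cluster on chromosome 19: KLK1, KLK15, KLK3, KLK2, the pseudogene KLKP1, KLK4, KLK10 and KLK11, in the order in which they lie on the chromosome. They were chosen by name and not by their values, and each is 1 of 60649 features in a table of RNA-seq read counts. The cells are LNCaP, an established line from human prostate cancer whose growth depends on androgen, and they gave 24 libraries in 8 groups of 3 libraries that the design text calls biological triplicates. Study 1 set cells transfected with an expression construct for WDR77-peptide 3 (P3), a piece of WDR77 by its name, against cells given empty vector (EV). Study 2 compared siRNAs targeting WDR77 (siWDR77) with a non-targeting siRNA (siCtrl). After a change to androgen-deprived medium, which all groups share, they received ethanol (vehicle) or 5 nM of the synthetic androgen R1881 for 48 h. RNA was enriched for polyadenylated transcripts. The promoter of the construct and protein levels were not given in the sources used here. Groups are named EV_vehicle, EV_R1881 and so on, and libraries by the sample numbers of their titles (S1 to S38).

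Kallikreins are secreted serine proteases that are made as inactive precursors and activated by cleavage. In the prostate epithelium androgen drives several of them, and the best known is KLK3, the gene of prostate-specific antigen (PSA), which liquefies semen and is the serum marker of prostate cancer. KLK2 can cleave the precursor of PSA into its active form, KLK4 can do so too and is better known for its part in forming tooth enamel, and KLK1, tissue kallikrein, releases kinins from kininogen. WDR77 is a partner of the arginine methyltransferase PRMT5.

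The 16 kallikrein genes span chromosome 19 from 50819148 to 51084245 (GRCh38, GENCODE 29). KLK1 (50819148 to 50823787) and KLK15 (50825289 to 50837213) lie on the minus strand. KLK3 (50854915 to 50860764) and KLK2 (50861568 to 50880567) follow on the plus strand. KLKP1 (50882096 to 50896398), a transcribed unprocessed pseudogene, and KLK4 (50906352 to 50910738) lie on the minus strand. KLK10 (51012739 to 51020175) and KLK11 (51022216 to 51028039) are further along, also on the minus strand. Each count covers the exons of the whole gene. KLK3 and KLK2 transcripts share an identical run of 60 bases, and no other pair of members shares more than 28. Reads from such stretches can be split between the genes, so the lower of these counts, that of KLK2, is the more uncertain. KLK10 shares 240 exonic bases with an antisense gene.

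The stretches upstream of the expressed protein-coding members are shown because these genes rose with hormone to different degrees. They are the 200 bases before a RefSeq start site (GRCh38.p14), read 5′ to 3′ on the gene's own strand: chr19:50854715-50854914 on the plus strand for KLK3, chr19:50873239-50873438 on the plus strand for KLK2, chr19:50911396-50911595 on the minus strand for KLK4 and chr19:50833575-50833774 on the minus strand for KLK15. For KLK4 and KLK15, which have 2 RefSeq windows each, the window that holds a TATA-like match is shown, so this match was selected. The other window of each held none. For KLK4 that other window starts at 50910738, the start of the gene as counted. The start of the KLK4 window shown, 50911395, lies outside that gene. Capitals mark the closest match to the androgen response element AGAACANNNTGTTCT with at most 3 mismatches over its 12 defined positions, and TTATA or its reverse complement in the stretch from 40 to 20 bases before the start.
KLK3: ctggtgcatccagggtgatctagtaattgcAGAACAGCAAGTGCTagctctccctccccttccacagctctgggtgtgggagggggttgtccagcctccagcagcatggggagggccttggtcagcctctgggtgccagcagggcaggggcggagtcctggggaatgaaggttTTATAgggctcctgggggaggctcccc
KLK2: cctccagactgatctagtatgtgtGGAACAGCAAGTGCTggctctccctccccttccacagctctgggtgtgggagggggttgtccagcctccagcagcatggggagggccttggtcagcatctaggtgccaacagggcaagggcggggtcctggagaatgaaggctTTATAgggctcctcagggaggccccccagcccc
KLK4: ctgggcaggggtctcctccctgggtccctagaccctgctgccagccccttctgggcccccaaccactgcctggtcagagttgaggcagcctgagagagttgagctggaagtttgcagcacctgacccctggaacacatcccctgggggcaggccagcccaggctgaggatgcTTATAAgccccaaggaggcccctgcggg
KLK15: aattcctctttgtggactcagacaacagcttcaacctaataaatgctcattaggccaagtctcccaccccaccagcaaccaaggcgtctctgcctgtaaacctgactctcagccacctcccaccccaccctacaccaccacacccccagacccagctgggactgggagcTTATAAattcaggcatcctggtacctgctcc
The motif equals its own reverse complement, so both strands were searched, and positions are counted from 1 at its 5′ end. KLK3 held AGAACAGCAAGTGCT at positions -170 to -156 from the start, with the substitutions T10A and T13G. KLK2 held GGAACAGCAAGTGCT at positions -176 to -162, with A1G, T10A and T13G. Of 35116 RefSeq windows of the same length, 1.41% held a match with at most 2 mismatches and 10.8% with at most 3, and 4.55% held TTATA at that place. Over the windows of 250 bases before to 50 after the start, 236 of 269 aligned bases (87.7%) were identical between KLK3 and KLK2. The closest matches had 5 or 6 mismatches in the KLK4 windows, 5 in those of KLK15 and KLK11 and 4 in those of KLK10, and 47.0% of all windows hold one with at most 4. These matches describe letters in a short window and do not show binding.

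Depth was 16665915 to 24260446 counts per library, and the 8 members took 0.0115% to 0.876% of them. Levels are given in CPM, the count relative to the library's total, with totals scaled by TMM over all 24 libraries, as mean ± SD (n = 3). Where a group's level is lower, fewer cells with the transcript and less transcript per cell cannot be told apart. Luminal prostate markers were present in every library, with KRT8 at 408.3 to 5222 CPM, KRT18 at 205.4 to 1839 CPM, FOLH1 at 1090 to 2687 CPM and STEAP2 at 993.2 to 1793 CPM. Defining markers of other cell types were at or near 0: COL1A2 and CD3E had no count in any library, and TP63, KRT5, DCN, PTPRC, PECAM1 and CHGA had none in at least 20 of 24 and stayed at or under 0.106 CPM. The summed levels of those lists were 0 to 0.408 CPM for immune, 0.23 to 9.97 for basal, 2.79 to 18.5 for endothelial and 6.8 to 24.9 for fibroblast and smooth muscle markers, and most of the last 3 came from KRT14, VWF and COL1A1. The neuroendocrine marker SYP was at 1.59 to 7.78 CPM. WDR77 was 45.7 ± 2.88 CPM in siCtrl_vehicle and 13.4 ± 1.84 in siWDR77_vehicle, and 66.9 ± 1.9 in siCtrl_R1881 and 14.5 ± 1.19 in siWDR77_R1881, so the knockdown was seen in the RNA (log2 fold changes -1.76 ± 0.093 and -2.20 ± 0.093, ± SE; edgeR adjusted p = 5.74e-12 and 8.47e-14). Library siCtrl_vehicle S35 stood apart: it had 8.4% of its counts on mitochondrial genes against 5.15% to 6.3% elsewhere, and its counts differed from those of its replicates with a chi-square per degree of freedom of 20.5 and 20.7 against at most 11.7 between other replicates.

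5 of the 8 members were expressed, and they passed the filter on low counts. In EV_vehicle cells KLK3 was the highest per length, at 284.6 ± 12.5 CPM per kb of exon, followed by KLK4 at 61.0 ± 1.5, KLK2 at 13.4 ± 0.866, KLKP1 at 5.43 ± 0.723 and KLK15 at 0.858 ± 0.103. Each step in this order was larger than the SDs. With R1881 the order in EV cells was the same, at 1457 ± 83.3 CPM per kb for KLK3, 150.9 ± 8.32 for KLK4, 120.9 ± 7.8 for KLK2, 8.18 ± 0.51 for KLKP1 and 1.57 ± 0.0665 for KLK15, and KLK2 had come close to KLK4. In siCtrl_vehicle cells the order differed. KLK3 (33.6 ± 19.1 CPM per kb) and KLK4 (30.3 ± 5.99) did not differ beyond their spread, and KLK2 (1.14 ± 0.672) lay below the pseudogene (3.6 ± 0.575). The wide spread of KLK3 came from S35, with 53.4 CPM against 207.4 in S21 and 206.6 in S7. KLK3 lay above KLK4 per kb in S21 and S7, and below it only in S35. With R1881 siCtrl cells returned to the order of EV cells, from KLK3 at 1718 ± 41.2 and KLK4 at 216.0 ± 2.37 to KLK2 at 95.6 ± 1.55, KLKP1 at 10.7 ± 0.57 and KLK15 at 1.45 ± 0.0564 CPM per kb. Exon lengths are unions over annotated transcripts, so levels per kb depend on that annotation.

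The other 3 members were not expressed at a level that could be compared. KLK1, on the KLK15 side of the cluster, had 51 counts over the 24 libraries, with at most 8 in a library (0.416 CPM, in EV_R1881 S16) and none in 7. KLK11 had 4 counts and KLK10, known from other epithelia, had 2. A count of 0 allows up to 3 counts, which is 0.124 CPM in the deepest library and 0.18 CPM in the shallowest. This covers counting error only. Of the kallikrein genes outside the list, KLK5, KLK6, KLK7, KLK8, KLK9, KLK12 and KLK13 reached at most 4 counts in a library. KLK14 had up to 14 (0.572 CPM, in P3_vehicle S5), and none of these was tested.

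**Figure D1:**
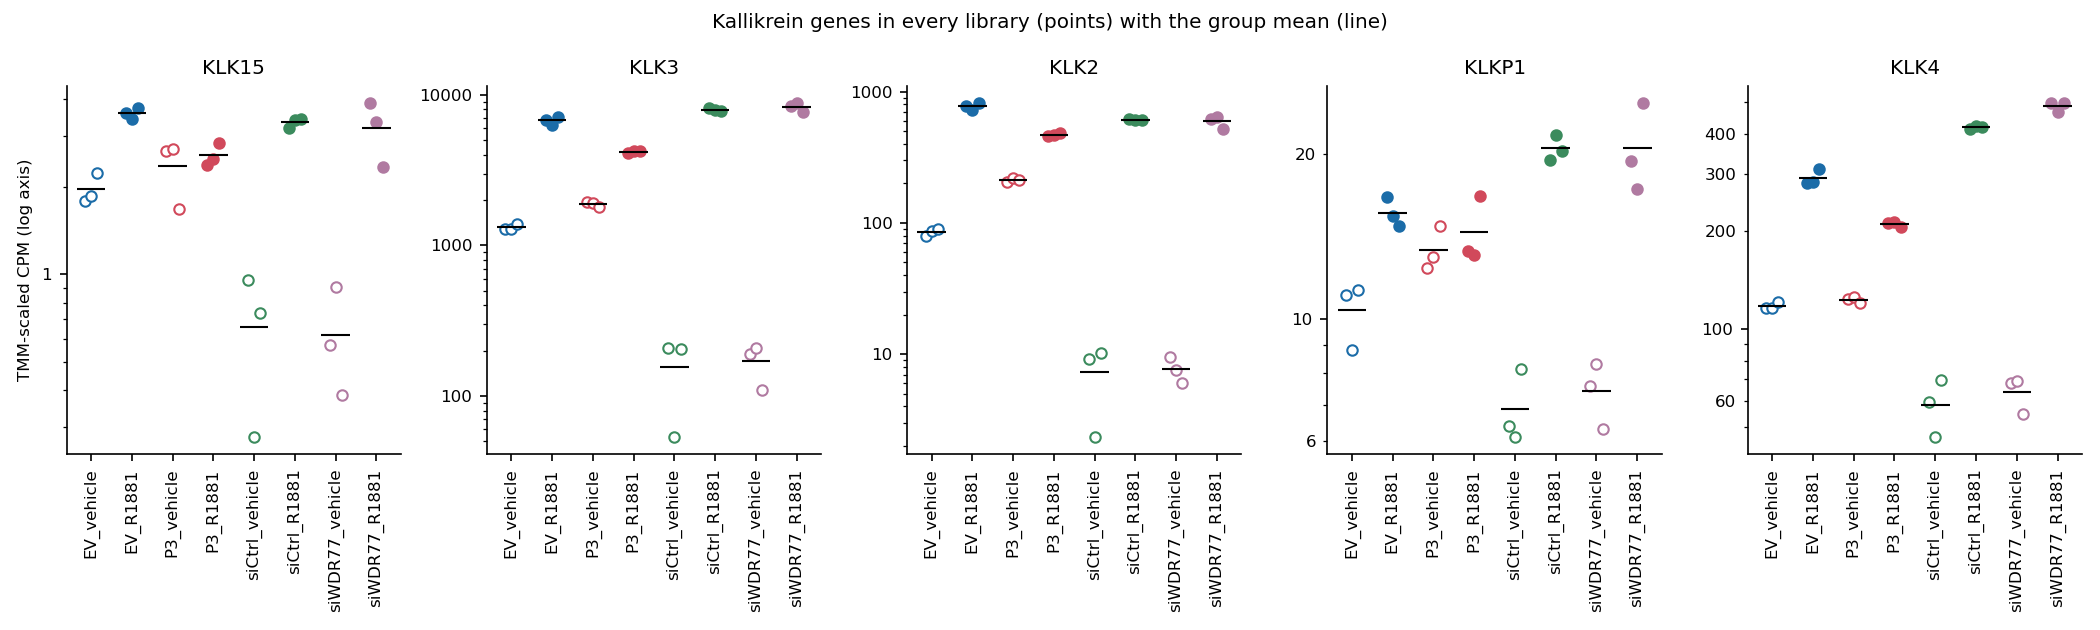
Levels of the 5 expressed members in every library, as TMM-scaled CPM on a log axis, with 1 panel per gene (note the different scales), open points for vehicle, filled points for R1881 and a line at the mean of the 3 libraries of each group. The low vehicle levels of KLK3 and KLK2 in both arms of study 2, and the lower point of siCtrl_vehicle S35, stand out against study 1.

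To ask how the hormone acted along the cluster, R1881 was compared with vehicle in each arm. In EV cells all 5 expressed members rose. KLK3 went from 1279, 1296 and 1387 CPM to 6827, 6340 and 7103 CPM. Its fold change was 5.18, or 2.37 ± 0.050 on the log2 scale (± SE of the fit; edgeR quasi-likelihood test, adjusted p = 7.88e-34). KLK2 went from 79.3, 86.8 and 90.1 CPM to 773.3, 722.9 and 822.6 CPM, which was 9.15-fold (3.19 ± 0.058, adjusted p = 6.49e-36). The vehicle and R1881 libraries were far apart for both genes. KLK4 rose from 116.1, 116.5 and 121.3 CPM to 281.8, 283.6 and 310.5 CPM, which was 2.5-fold (1.32 ± 0.052). The pseudogene KLKP1 rose less, from 11.1, 8.79 and 11.3 CPM to 16.7, 15.4 and 14.8 CPM (1.53-fold, 0.62 ± 0.12, adjusted p = 4.08e-05). KLK15, a low-level protease gene next to KLK3 on the other strand, rose from 1.79, 1.86 and 2.23 CPM to 3.58, 3.43 and 3.74 CPM (1.85-fold, 0.88 ± 0.24, adjusted p = 0.00198). No member's vehicle libraries overlapped its R1881 libraries. How many of all genes had groups without overlap was not counted, here or below, so this is a description only. Of all 17772 genes tested 24.9% were called higher (adjusted p under 0.05), and the members' median change was 1.32 beside -0.04 for all genes. By the size of the rise KLK2 was in place 169, KLK3 361, KLK4 941, KLK15 1664 and KLKP1 2586 among those genes.

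In P3 cells only the 3 more abundant members were called higher with R1881, where 13.0% of all genes were, and the members' median was 0.80 beside -0.02 for all genes. KLK3 went from 1951, 1903 and 1811 CPM to 4091, 4244 and 4223 CPM (2.25-fold, 1.17 ± 0.048, edgeR adjusted p = 6.28e-23). KLK2 went from 204.8, 219.4 and 213.0 CPM to 459.6, 466.2 and 481.6 CPM (2.24-fold, 1.17 ± 0.053), so that both folds lay within their SEs here. KLK4 went from 124.2, 125.3 and 120.0 CPM to 211.9, 213.1 and 206.2 CPM (1.74-fold, 0.80 ± 0.051). The groups of these 3 genes did not overlap. KLKP1 was at 12.4, 13.0 and 14.8 CPM in vehicle and 13.3, 13.1 and 16.8 CPM in R1881 (0.12, 95% interval -0.11 to 0.35, adjusted p = 0.558). KLK15 was at 2.66, 2.7 and 1.68 CPM and at 2.38, 2.49 and 2.82 CPM (0.16, interval -0.31 to 0.62, adjusted p = 0.725). The groups overlapped for both.

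In study 2 the rises were larger. With siCtrl KLK3 went from 207.4, 53.4 and 206.6 CPM to 8154, 7979 and 7773 CPM, the lowest being S35. This was a 51.0-fold rise (5.67 ± 0.54, edgeR adjusted p = 2.36e-05). KLK2 went from 9.17, 2.34 and 10.3 CPM to 622.4, 603.3 and 608.1 CPM, an 83.5-fold rise (6.38 ± 0.38, adjusted p = 7.67e-07). Without S35 these changes were 5.26 and 5.96 on the log2 scale and remained called (adjusted p = 1.97e-06 and 4.4e-10). KLK4 went from 59.5, 46.5 and 69.6 CPM to 412.9, 421.6 and 419.6 CPM (7.12-fold, 2.83 ± 0.13). KLKP1 went from 6.4, 6.11 and 8.14 CPM to 19.5, 21.7 and 20.3 CPM (2.96-fold, 1.57 ± 0.14). KLK15 went from 0.958, 0.276 and 0.737 CPM to 3.18, 3.38 and 3.42 CPM (5.05-fold, 2.34 ± 0.35). All 5 were called, with no overlap, where 25.7% of 17893 genes were called higher, and without S35 the last 3 stood at 2.68, 1.48 and 1.97 and remained called. The members' median was 2.83 beside -0.04 for all genes. KLK2 was in place 36 and KLK3 in place 53 by the size of the rise.

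With siWDR77 all 5 members rose too, where 27.7% of genes were called higher (members' median 2.92, all genes -0.02). KLK3 went from 191.3, 209.5 and 110.0 CPM to 8479, 8866 and 7651 CPM (48.8-fold, 5.61 ± 0.54). The 110.0 CPM is that of S9. KLK2 went from 9.6, 7.62 and 6.0 CPM to 615.0, 640.7 and 521.7 CPM (75.1-fold, 6.23 ± 0.37). KLK4 rose 7.56-fold (2.92 ± 0.13), KLKP1 2.76-fold (1.46 ± 0.14) and KLK15 5.03-fold (2.33 ± 0.35; edgeR adjusted p = 3.27e-06). In all 4 arms the order of the rises was KLK2 or KLK3, then KLK4, and last KLK15 and KLKP1. Leaving out S35 and S9 together, a choice made after their low KLK3 counts were seen, gave 5.35 for KLK3 and 6.06 for KLK2.

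Genes around the members were looked at in a window that reaches 100 kb beyond the outermost kallikrein genes, with 47 features, of which 9 other than members were tested. R1881 raised 5 of the 9 in EV, 1 in P3, 8 in siCtrl and 8 in siWDR77 cells, and lowered none. Of all genes tested 24.9%, 13.0%, 25.7% and 27.7% were called higher in these comparisons, so the count in P3 cells is near the share of all genes. In study 2 the filter's cutoff was 0.483 CPM. CTD-2568A17.8, SNORD88A, LINC01869 and AC011523.2 averaged under it in both vehicle groups and above it in both R1881 groups. They passed the filter through the groups where they are high, so the filter favoured a call of higher. CTD-2568A17.8 did so in study 1 too (0.0363 CPM in EV_vehicle, 0.552 in EV_R1881, cutoff 0.531). ACP4, a testicular acid phosphatase gene, rose by 3.06 in EV cells (edgeR adjusted p = 2.66e-12) and by 3.71 in siCtrl cells. In P3 cells its difference was 0.47 (adjusted p = 0.141). ACP4 was also higher in P3 than in EV cells in vehicle (2.38, adjusted p = 1.67e-07), and its response was smaller in P3 cells by test (-2.59, adjusted p = 4.73e-07). CTD-2568A17.1, CTD-2568A17.8 and AC011523.2, all at most 3.73 CPM, also rose in EV cells (1.36, 3.83 and 1.53). C19orf48, an abundant transcript between ACP4 and KLK1, rose by 0.70 in EV, 0.49 in P3, 2.59 in siCtrl and 2.62 in siWDR77 cells. CTU1, a tRNA thiolation gene at the far end of the window, was called in none of the 4 comparisons (-0.09, -0.11, 0.27 and 0.06). No gene between KLK4 and CTU1 passed the filter.

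**Figure D2:**
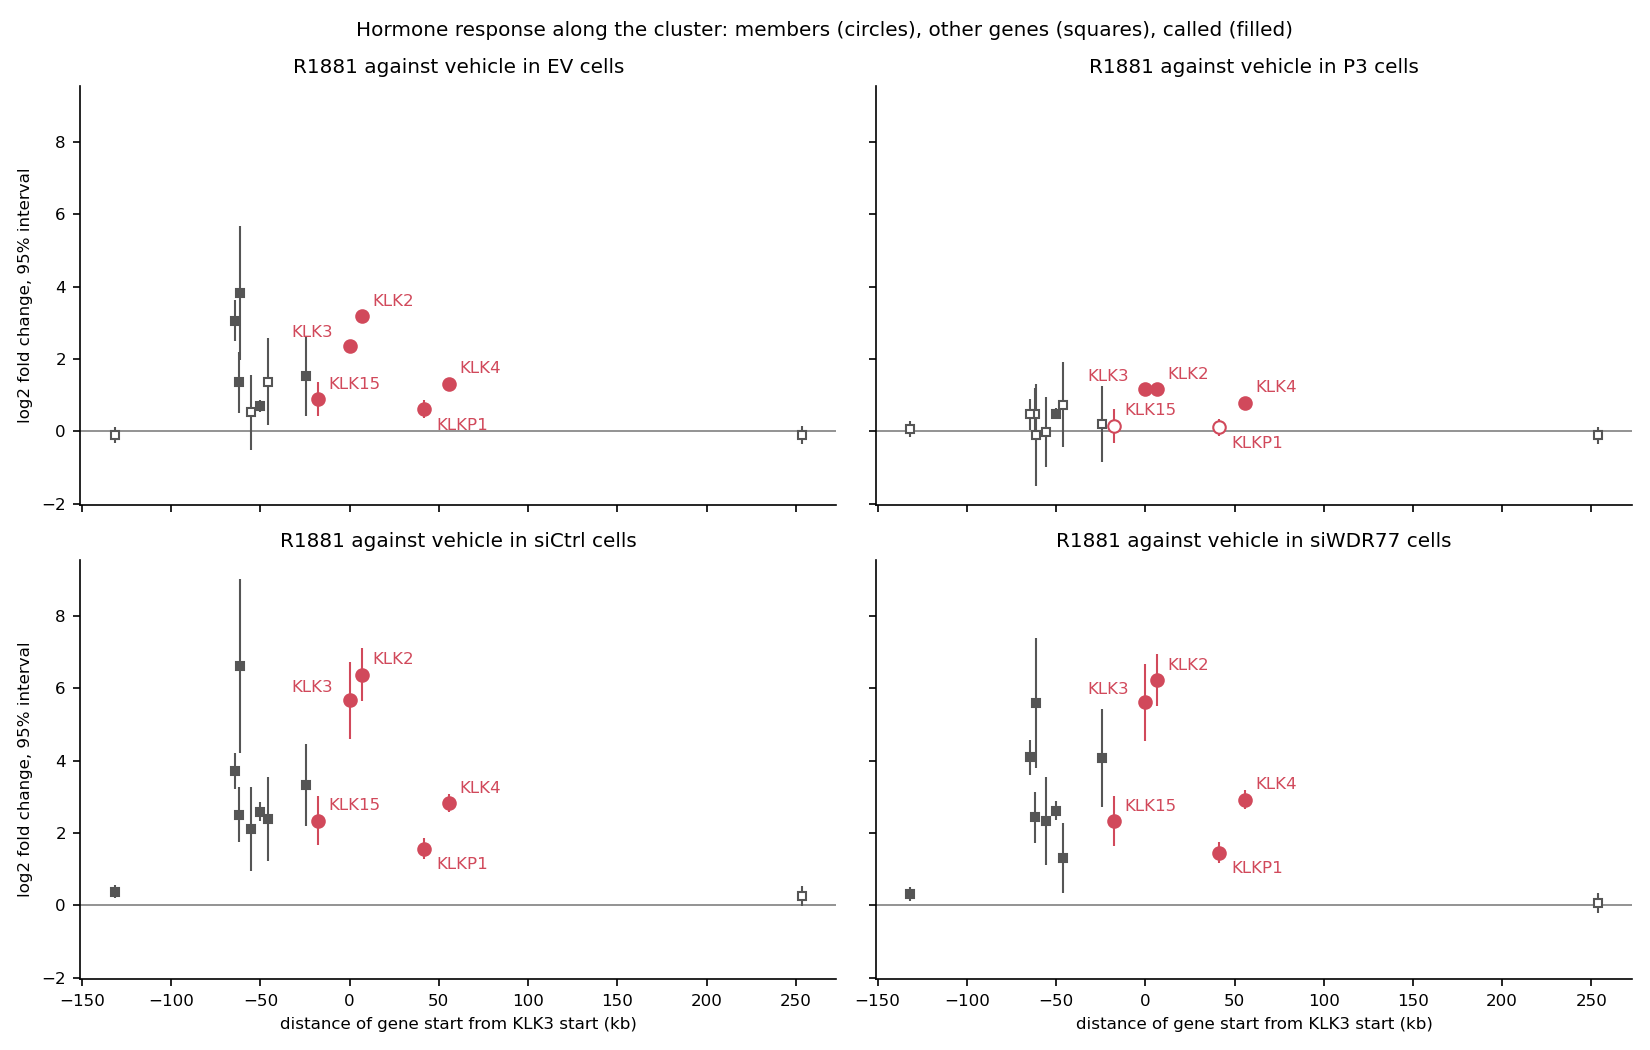
Log2 fold change of R1881 against vehicle (vertical axis, with 95% interval) against the distance of the annotated gene start from that of KLK3 in kb, for the 14 tested genes of the window in each of the 4 arms; circles are members, squares other genes, and filled symbols passed the adjusted p of 0.05. In EV, siCtrl and siWDR77 cells KLK2 and KLK3 stand above KLK15, KLKP1 and KLK4, and in P3 cells these differences are smaller.

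To ask whether neighbours kept a fixed proportion, the ratio of their counts was taken within each library, which does not depend on scaling between libraries. With hormone 7 of 8 ratios moved (exact permutation within arms, two-sided, 400 arrangements, smallest possible p = 0.005; adjusted over 16 tests with those between arms). The share of other gene pairs whose ratio moves was not counted, with hormone or between arms, so these counts describe the members only. The ratios use the same counts as the fold changes above and are not separate evidence. The count of KLK2 was 8.24 times that of KLKP1 in EV_vehicle and 49.3 times in EV_R1881, and 0.886 and 29.8 times in siCtrl_vehicle and siCtrl_R1881. S35 was the lowest of the siCtrl_vehicle libraries (-1.37 on the log2 scale, with a highest of 0.52). Over both arms this ratio rose 3.52-fold in study 1 and 30.8-fold in study 2 (exact permutation adjusted p = 0.01 for each). KLK3 against KLK15 rose 2.36-fold and 10.4-fold, and KLK4 against KLKP1 1.62-fold and 2.59-fold (adjusted p = 0.01 for each of the 4). KLK3 against KLK2 fell 1.59-fold in study 2 (adjusted p = 0.01). In study 1 it differed by 1.33-fold the same way and was not called (exact permutation adjusted p = 0.107). There the ratio was 15.5 in EV_vehicle (libraries from 3.90 to 4.01 on the log2 scale) against 8.74 in EV_R1881 (3.11 to 3.14), 8.89 in P3_vehicle (3.09 to 3.25) and 8.92 in P3_R1881 (3.13 to 3.19). EV_vehicle thus stood apart from the other 3 groups, which overlapped. In study 2 the ratio was 21.7 in siCtrl_vehicle, 21.5 in siWDR77_vehicle, 13.0 in siCtrl_R1881 and 14.1 in siWDR77_R1881.

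**Figure D3:**
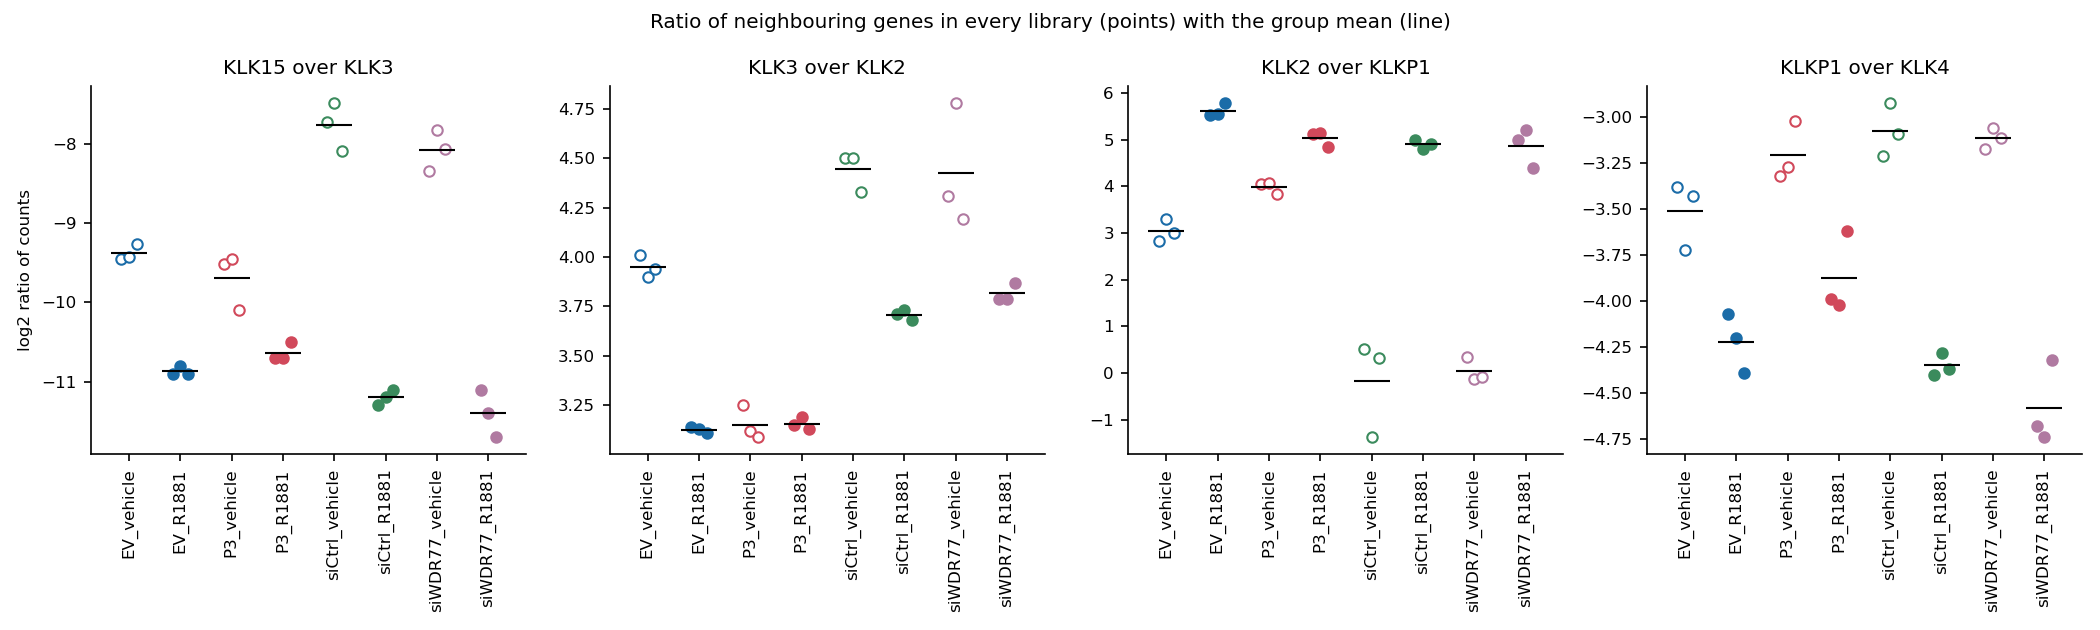
Log2 ratio of the counts of neighbouring members in every library (points; open vehicle, filled R1881) with the mean of each group of 3 (line), 1 panel per pair in chromosome order. The ratio of KLK3 to KLK2 is about the same in EV_R1881, P3_vehicle and P3_R1881 (3.13, 3.15 and 3.16) and higher in EV_vehicle (3.95).

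Between arms, 1 of 8 ratios was called. KLKP1 against KLK4 was 1.25-fold higher in P3 than in EV cells (exact permutation within vehicle and R1881, adjusted p = 0.01), and siWDR77 against siCtrl gave no called ratio (exact permutation adjusted p of 0.204 to 0.87). KLK3 against KLK2 in P3 against EV, which averages the vehicle and R1881 differences, had an adjusted p of 0.144 (exact permutation).

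WDR77 RNA in study 1 was 58.9 ± 4.35 CPM in EV_vehicle and 55.7 ± 4.73 in P3_vehicle (-0.06, edgeR adjusted p = 0.572). With R1881 it was 59.8 ± 2.78 in EV and 91.6 ± 5.6 in P3 cells (0.64, edgeR adjusted p = 2.31e-10). Whether these counts include reads from the construct was not given, so its level in each P3 group is not known. The effect of the peptide was asked first without hormone. In vehicle 3 of 5 members were higher in P3 than in EV cells, where 7.93% of genes were called higher (members' median 0.40, all genes -0.02). KLK2 was 2.52-fold higher (1.33 ± 0.056; edgeR adjusted p = 5.43e-21), at 204.8 to 219.4 CPM against 79.3 to 90.1. KLK3 was 1.45-fold higher (0.54 ± 0.048; adjusted p = 8.83e-11), at 1811 to 1951 CPM against 1279 to 1387. KLKP1, between KLK2 and KLK4, was 1.32-fold higher (0.40 ± 0.12; adjusted p = 0.0199), at 12.4 to 14.8 CPM against 8.79 to 11.3. This call was lost without EV_vehicle S15 (0.28, adjusted p = 0.176) or without P3_vehicle S5 (0.31, adjusted p = 0.152). KLK4 (0.08, interval -0.02 to 0.18, adjusted p = 0.296) and KLK15 (0.27, interval -0.21 to 0.75, adjusted p = 0.49) were not called, and their groups overlapped. In a fit that takes the spread from all 24 libraries, KLK3 (0.52, adjusted p = 0.308) and KLKP1 (0.38, adjusted p = 0.0557) lost their calls and KLK2 alone was left.

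With R1881 the direction was the opposite, and 3 of 5 members were lower in P3 cells, where 18.9% of genes were called lower (members' median -0.46, all genes 0.03). KLK2 was 1.62-fold lower (-0.69 ± 0.052; edgeR adjusted p = 2.96e-14), at 459.6 to 481.6 CPM against 722.9 to 822.6. KLK3 was 1.58-fold lower (-0.66 ± 0.047; adjusted p = 6.92e-15), at 4091 to 4244 CPM against 6340 to 7103. KLK4 was 1.36-fold lower (-0.45 ± 0.051; adjusted p = 1.72e-09), at 206.2 to 213.1 CPM against 281.8 to 310.5. KLK15 lay lower in all 3 P3 libraries (2.38 to 2.82 CPM against 3.43 to 3.74) but was not called (-0.46, interval -0.92 to 0.0037, adjusted p = 0.127), and KLKP1 overlapped (-0.10, interval -0.33 to 0.13, adjusted p = 0.556). In the fit over all 24 libraries KLK3 was not called (-0.69, adjusted p = 0.107).

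The difference between the responses was called for 4 of 5 members, all lower, where 11.1% of genes were called lower (members' median -0.73, all genes 0.02). It was -2.03 ± 0.076 for KLK2 (edgeR adjusted p = 1.22e-22), a 4.08-fold smaller rise, and -1.20 ± 0.067 for KLK3 (adjusted p = 1.2e-17), a 2.3-fold smaller one. KLK4 followed at -0.53 ± 0.073 (adjusted p = 2.52e-07) and KLKP1 at -0.50 ± 0.17 (adjusted p = 0.0285). KLK15 was at -0.73 ± 0.34 (adjusted p = 0.125) and was called without P3_vehicle S5 (-0.92, adjusted p = 0.046). KLKP1 lost its call without any 1 of EV_vehicle S15, EV_R1881 S16, P3_vehicle S5, P3_R1881 S20 or P3_R1881 S34 (-0.48 to -0.39, adjusted p = 0.0615 to 0.13). In the fit over all 24 libraries KLK3 (-1.21, adjusted p = 0.0719) and KLKP1 (-0.50, adjusted p = 0.0575) were not called. The P3 and EV comparisons above share their libraries, so they are not separate lines of evidence.

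Knockdown of WDR77 gave no call for any member. In vehicle the changes against siCtrl were 0.13 (95% interval -0.76 to 1.02) for KLK3, 0.11 (-0.72 to 0.93) for KLK2, 0.13 (-0.12 to 0.39) for KLK4, 0.11 (-0.19 to 0.40) for KLKP1 and -0.05 (-0.86 to 0.75) for KLK15, with edgeR adjusted p of 0.768 to 0.981. Here 1.53% of genes were called in either direction. The groups overlapped for each member, with KLK3 at 53.4, 206.6 and 207.4 CPM in siCtrl and 110.0, 191.3 and 209.5 CPM in siWDR77. S35 and S9 had the lowest KLK3 and KLK2 levels of their groups. Without S35 KLK3 stood at -0.27 (adjusted p = 0.711), KLK2 at -0.30 (adjusted p = 0.523) and KLK4 at -0.0047 (adjusted p = 0.991), so their sign turned without that library.

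With R1881, where 7.22% of genes were called in either direction, the changes were 0.07 (-0.80 to 0.93) for KLK3, -0.04 (-0.58 to 0.50) for KLK2, 0.0031 (-0.26 to 0.27) for KLKP1 and -0.06 (-0.63 to 0.51) for KLK15, with overlapping groups and edgeR adjusted p of 0.945 to 0.995. KLK4 was at 464.9, 495.8 and 498.0 CPM in siWDR77 and 412.9, 419.6 and 421.6 CPM in siCtrl cells. The groups did not overlap, and the change of 0.22 (-0.02 to 0.46) was not called (adjusted p = 0.354). It was called with no filter on low counts (0.21, adjusted p = 0.0484) and without S35 and S9 (0.20, adjusted p = 0.0137).

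The response to R1881 differed between siWDR77 and siCtrl cells by -0.07 (-1.30 to 1.17) for KLK3, -0.15 (-1.14 to 0.83) for KLK2, 0.09 (-0.26 to 0.44) for KLK4, -0.10 (-0.50 to 0.29) for KLKP1 and -0.0058 (-1.06 to 1.05) for KLK15. EdgeR called 0.00% of genes in this comparison, 0 of 17893, while 1484 had an unadjusted p under 0.05 and DESeq2 called 56. A change of the size seen with P3 lies inside the interval for KLK3 (-1.20) and KLK15 (-0.73, not called with P3). It lies outside for KLK2 (-2.03) and KLK4 (-0.53), and at the lower end for KLKP1 (-0.499 against -0.498). These intervals are narrower than the degrees of freedom of the F test would give. The difference between the studies was not tested.

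**Figure D4:**
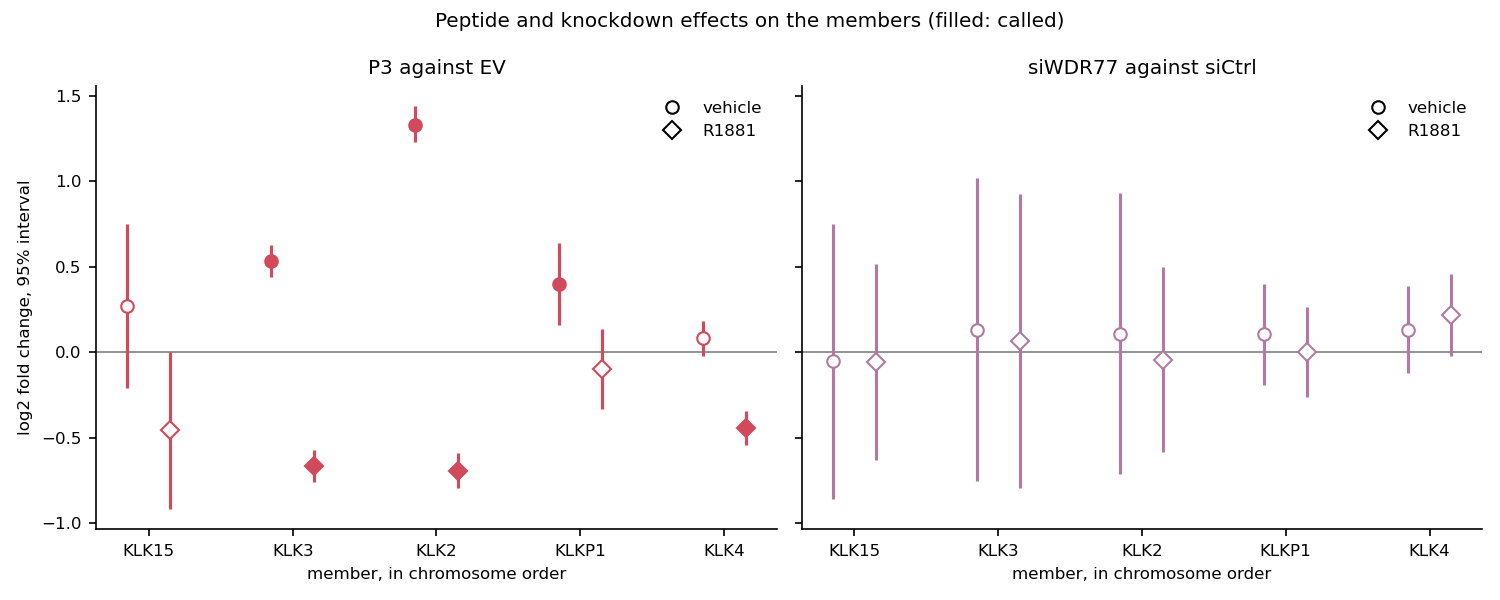
Log2 fold change (vertical axis, with 95% interval) of P3 against EV (left) and of siWDR77 against siCtrl (right) for the 5 expressed members in chromosome order, in vehicle (circles) and R1881 (diamonds); filled symbols passed the adjusted p of 0.05. KLK2 and KLK3 lie above 0 in vehicle and below 0 in R1881 with P3, and no symbol is filled for siWDR77.

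The control arms of the studies differed in the starting level of the cluster. In vehicle all 5 expressed members were lower in siCtrl than in EV cells, where 18.9% of 18999 genes were called lower (members' median -1.58, all genes -0.00091). KLK2 was 11.7-fold lower (-3.55 ± 0.25; edgeR adjusted p = 1.15e-08), at 2.34 to 10.3 CPM against 79.3 to 90.1, and KLK3 was 8.47-fold lower (-3.08 ± 0.34; adjusted p = 2.21e-06), at 53.4 to 207.4 CPM against 1279 to 1387. KLK15 was 2.99-fold, KLK4 2.01-fold and KLKP1 1.49-fold lower (adjusted p = 0.00132 for the last). Without S35 the 5 values were -3.09 for KLK2, -2.63 for KLK3, -1.17 for KLK15, -0.82 for KLK4 and -0.45 for KLKP1, and all remained called.

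With R1881 the control arms lay closer. KLK4 was 1.43-fold higher in siCtrl (0.52 ± 0.089; edgeR adjusted p = 0.000167) and KLKP1 1.31-fold (0.39 ± 0.13; adjusted p = 0.0306), where 19.2% of genes were called in either direction. KLK3 (0.24, adjusted p = 0.672), KLK2 (-0.34, adjusted p = 0.251) and KLK15 (-0.11, adjusted p = 0.828) were not called. Their libraries did not overlap between the 2 arms, but how many of all genes do the same was not counted. KLK2 was called lower without S35 (-0.35, adjusted p = 0.0027). KLKP1 lost its call without any 1 of EV_R1881 S2, EV_R1881 S30, siCtrl_R1881 S36 or siCtrl_R1881 S8 (adjusted p = 0.0623 to 0.112). The response to R1881 was larger in siCtrl than in EV cells for all 5 members, where 10.7% of genes were called higher: by 3.32 ± 0.46 for KLK3, 3.21 ± 0.32 for KLK2, 1.53 ± 0.13 for KLK4, 1.47 ± 0.41 for KLK15 and 0.97 ± 0.19 for KLKP1 (edgeR adjusted p = 8.33e-05, 3.02e-06, 2.66e-08, 0.0103 and 0.000347). Without S35 KLK15 was not called (1.06, adjusted p = 0.0803). EV and siCtrl differ in transfected material and in study, and these cannot be told apart.

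Other androgen-induced genes were set beside the members. In vehicle, TMPRSS2 and FKBP5 were 2.1-fold and 2.0-fold lower in siCtrl than in EV cells, close to KLK4 and far from KLK2 and KLK3. With R1881 in EV cells TMPRSS2 rose 8.85-fold and FKBP5 33.6-fold. Among the members, KLK2 was near TMPRSS2.

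Proteins that restrain or receive kallikrein activity were followed from lists chosen by function. Of 15 kallikrein inhibitor genes 4 were expressed. SPINT1, a membrane-bound inhibitor of serine proteases, rose with R1881 in EV (0.56 ± 0.054; edgeR adjusted p = 6.41e-12), P3 (0.28 ± 0.054), siCtrl (0.23 ± 0.065) and siWDR77 cells (0.29 ± 0.065). It was the 1 gene of 4 called in EV and in P3 cells. In siCtrl and in siWDR77 cells 2 of 4 were called, the other being the serpin gene SERPINB6 (0.27 ± 0.062 and 0.37 ± 0.062). Of all genes 24.9%, 13.0%, 25.7% and 27.7% were called higher in these comparisons, and the 1 of 4 in EV cells is near that share. The list's median in EV cells was 0.05 beside -0.04 for all genes. With R1881, SPINT1 and SPINT2 were lower in P3 than in EV cells (-0.40 ± 0.054 and -0.19 ± 0.057), where 18.9% of all genes were called lower. With siWDR77 none of the 4 was called in vehicle or in R1881. Of all genes 1.53% and 7.22% were called there in either direction, so this is near the share of all genes.

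Of 18 genes of substrates and receptors 11 were tested in study 1. With R1881 in EV cells 2 rose and 6 fell, where 24.9% of all genes were called higher and 26.4% lower, with a median of -0.38 beside -0.04 for all genes. Fibronectin, FN1, a matrix substrate, fell by 1.87 (edgeR adjusted p = 1.22e-28). F2RL1, the protease-activated receptor PAR2, rose by 1.49 (adjusted p = 8.39e-21). In P3 cells 2 rose and 3 fell, where 13.0% of all genes were called higher and 7.96% lower, with FN1 at -0.60 ± 0.052 and ACP3, prostatic acid phosphatase, at 0.65 ± 0.051. In siCtrl cells 2 of 10 rose and 7 fell, where 25.7% of all genes were called higher and 25.4% lower, the receptor genes F2RL1 by 1.26 ± 0.085 and F2R at -1.76 ± 0.13. In siWDR77 cells 2 rose and 5 fell, where 27.7% of all genes were called higher and 25.5% lower, with ACP3 at 1.17 ± 0.067. The counts of genes that rose in EV, siCtrl and siWDR77 cells are near or below the shares of all genes. With R1881, FN1 was higher in P3 than in EV cells (1.22 ± 0.054) and lower in siWDR77 than in siCtrl cells (-0.77 ± 0.14; adjusted p = 0.0123), while ACP3 was higher in siWDR77 cells (0.52 ± 0.066; adjusted p = 2.41e-05).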

How the data were processed

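The authors deposited 1 table of raw counts, with a column for each of 24 libraries. The submitters' processing notes name bcl2fastq 2.20, STAR 2.7.9a, featureCounts (Subread 1.6.4) and the build GRCh38.p7. Whether counting used strand or multimapping reads was not given in the sources used here. 3 P3_R1881 columns also carry "siRNA" in their name and were matched by sample number. 58381 of 60649 IDs were found in GENCODE 29, which gave positions and exon lengths. Promoter sequences are from RefSeq, in which 6 of the 8 members had an entry.

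Tests used edgeR 4.0.16 in R 4.3.3 (TMM, filterByExpr by group, robust quasi-likelihood F test, no covariate) with 1 fit of 12 libraries per study (17772 and 17893 genes), and on all 24 (18999 genes) for siCtrl against EV, in 13 comparisons. Called means an adjusted p (Benjamini-Hochberg, over all genes tested) under 0.05. SEs derive from the F statistic. Ratios used log2 of counts plus 0.5. The edgeR and permutation tests were tested on simulated data. Whether triplicates came from separate days was not stated, so p-values measure the spread between these samples. No libraries of a group were identical. Same-run libraries (the order of the sample numbers within a group) of P3_vehicle and P3_R1881 deviated together in all 3 pairs (r = 0.119 to 0.175), which comes from the data and not from the labels. No other pair of groups reached the lowest of these values in all 3. Others were positive in all 3, such as siCtrl_vehicle with siCtrl_R1881 (r = 0.0339 to 0.12).

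Alternatives were RLE size factors, no filter, DESeq2 1.42.0, a replicate block, 1 fit over 24 libraries, a ratio constant of 5 counts, and leaving out each library. Leaving out S35 and S9 together was added after seeing the data. The members, lists, markers and tests were chosen with earlier results of these data known. Some genes of the lists are not reported here. Named genes were the members, called or expressed genes of the cluster window, the 2 members of each function list with the smallest adjusted p, androgen-induced reference genes, and the 5 genes most alike in pattern to each member above 1 CPM in every group.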

Additional observations from a re-analysis of the deposited data

Results flagged for a closer look

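The hormone response of 4 members differed between P3 and EV cells by a test of the difference itself (edgeR interaction term). The differences were -2.03 for KLK2, -1.20 for KLK3, -0.53 for KLK4 and -0.50 for KLKP1 on the log2 scale. KLK2 and KLK3 were higher than EV in all 3 P3 libraries without hormone and lower in all 3 with it.

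The response of all 5 expressed members was larger in siCtrl than in EV cells, by 3.32 for KLK3, 3.21 for KLK2, 1.53 for KLK4, 1.47 for KLK15 and 0.97 for KLKP1. The vehicle levels of KLK3 and KLK2 were 8.47-fold and 11.7-fold lower in siCtrl cells, while those with R1881 were not called different. The share of this that belongs to the transfected material or to the study was not tested.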

How the results depend on the processing

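Of the alternatives for single members that passed the test, 805 kept direction and call and 17 lost the call, and none turned. Depth limits KLK15 and the 3 members that were not expressed. In 1 fit over all 24 libraries the members called fell to 1 for P3 against EV in vehicle and to 2 for the response difference. With no filter, and without S35 and S9 together (added after seeing the data), 1 member was called for siWDR77 against siCtrl in R1881. The cause was not tested.

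Over all genes, siWDR77 against siCtrl in vehicle had 422 calls with no filter, 466 with DESeq2 and 491 in the 24-library fit, against 273. Its response difference had 112, 56 and 40 by the same settings, 16 with the replicate block (run of the sample number) and 53 without S35 and S9, against 0. Same-run libraries correlated by -0.016 to 0.175 in study 1 and -0.0928 to 0.123 in study 2. By the labels they share only the order of their sample numbers. For R1881 in P3, whose same-run libraries deviate together, the block gave 4291 genes called against 3726. For P3 against EV in vehicle, which also holds P3_vehicle, it gave 3717 against 2809. In the comparison of R1881 in EV, without P3 libraries, it gave 9525 against 9130. The cause of these gains was not tested. The block changed no member's call in any comparison.

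Leaving out 1 library at a time gave 1344 to 3176 genes called for P3 against EV in vehicle (1344 without P3_vehicle S5, 1709 without EV_vehicle S1 and 1825 without S15, against 2809), 91 to 478 (91, 105 and 143 without S9, S37 and S21, 478 without S35) and 587 to 1983 (587 to 752 without S22, S36, S8, S24 or S38, 1983 without S35, against 1291) for siWDR77 against siCtrl in vehicle and in R1881, and 0 to 43 for its response difference (43 without S35, at most 2 without any other). Members called were 1 to 3 for siCtrl against EV in R1881. Ratios between arms that turned sign, none of them called, ranged from -0.0985 to 0.0547 (KLK15 over KLK3, study 1), -0.0379 to 0.109 (KLK3 over KLK2, study 2) and -0.208 to 0.265 (KLK2 over KLKP1, study 2).

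The single members that turned sign had not been called. KLKP1 in siWDR77 against siCtrl in R1881 was -0.00514 with RLE, -0.00261 with no filter, -0.00793 with DESeq2, -0.00427 with the replicate block and -0.012 without S35 and S9, and -0.158 to 0.108 with 1 library left out. Without S35 and S9, KLK3 and KLK2 were -0.041 and -0.165 for siWDR77 against siCtrl in vehicle, and KLK15, KLK3 and KLK2 were 0.121, 0.0905 and 0.105 for the response difference. With 1 library left out, R1881 in P3 ranged from -0.0387 to 0.258 for KLK15 and -0.0024 to 0.204 for KLKP1. SiWDR77 against siCtrl in vehicle ranged from -0.407 to 0.285 for KLK15, -0.273 to 0.39 for KLK3, -0.303 to 0.476 for KLK2 and -0.0047 to 0.277 for KLK4, and in R1881 from -0.23 to 0.123 for KLK15 and -0.105 to 0.0382 for KLK2. Its response difference ranged from -0.344 to 0.348 for KLK15, -0.326 to 0.323 for KLK3, -0.521 to 0.243 for KLK2, -0.0593 to 0.208 for KLK4 and -0.264 to 0.0026 for KLKP1.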

Other observations

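The patterns of the members over the 8 group means were alike: Pearson's r of log2(CPM + 1) between pairs of them ran from 0.919 (KLK4 with KLK2 and with KLK15) to 0.992 (KLK3 with KLK2). These are descriptions over 8 means that share libraries and a common hormone effect. Among 11184 other genes that averaged 5 CPM or more, the closest to KLK3 were MTARC1, a mitochondrial reductase gene (r = 0.9912), and ETV1, a transcription factor gene (r = 0.9875), and MTARC1 was also the closest to KLK2 (r = 0.9896). KLK4 was closest to MORC4 (r = 0.9964) and to IMPDH1, an enzyme gene of guanine nucleotide synthesis (r = 0.9951). The closest 5 to KLKP1 included its neighbour in the window, C19orf48 (r = 0.9878).

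Between groups MTARC1 ranged over 0.62 on the log2 scale. Pearson's r compares the shape of a pattern over the groups and not its size.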
